A study of Drosophila melanogaster with 2 samples.

Results

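The genes zen, zen2, peb, C15, tup and Ance are expressed in the dorsal ectoderm or the amnioserosa of the Drosophila melanogaster embryo, and they were taken as a group by name, 6 of the 13945 protein-coding genes annotated on the 6 main chromosome arms. Their chromatin was examined for peaks of Mad-eGFP, the Smad transcription factor Mad with GFP fused to its C terminus, in unsorted whole embryos (male and female together) collected over the first day of development, 0 to 24 h. Anti-GFP antibody was used for the precipitation in 2 biological replicates of 1 transgenic line, and the labels give no other genotype, treatment or condition. The labels do not say which promoter drives the fusion, and the chromatin of all tissues and stages of that day was pooled, so a site used by few nuclei and a site used weakly by many cannot be told apart. Each gene was searched in its annotated span extended by 5 kb on each side, in build dm6. The deposited lists hold 30000 peaks for each replicate, 30000 for both replicates pooled, and 3590 that passed the authors' cutoff for reproducible peaks (the thresholded list). Signal here means the value that the authors' caller wrote for a peak. Sequencing depth is unknown.

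The amnioserosa is an extraembryonic epithelium that forms along the dorsal midline, where signalling by the bone morphogenetic proteins (BMPs) Dpp and Screw is highest. Activated receptors phosphorylate Mad, which enters the nucleus with its partner Medea and binds DNA through GC-rich sites and short Smad boxes. The homeobox gene zen is first expressed broadly on the dorsal side and is then narrowed to the midline under BMP control. The Zen protein and the Smads then act together on genes of the amnioserosa, of which Ance, also known as Race, is a well-studied example.

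The sequences at the peaks that the results turn on are given first. They are the plus strand of the dm6 genome from RefSeq, 201 bp centred on the peak summit in the pooled list. For zen the only pooled-list peak of its window is shown. For peb, C15, tup and Ance the strongest peak nearest the gene's own transcription start site (TSS) is shown. The last 3 are thresholded peaks of the windows that lay at promoters of neighbouring genes. Capitals mark matches to the 13 motif words that are described below, and a window without capitals holds none of them.
zen, downstream of the gene, chr3R:6751530-6751730: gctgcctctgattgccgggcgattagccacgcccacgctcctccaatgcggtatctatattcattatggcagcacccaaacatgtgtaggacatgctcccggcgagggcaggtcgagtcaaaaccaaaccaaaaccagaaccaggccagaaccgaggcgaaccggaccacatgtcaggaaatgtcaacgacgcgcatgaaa
peb, upstream, chrX:4616917-4617117: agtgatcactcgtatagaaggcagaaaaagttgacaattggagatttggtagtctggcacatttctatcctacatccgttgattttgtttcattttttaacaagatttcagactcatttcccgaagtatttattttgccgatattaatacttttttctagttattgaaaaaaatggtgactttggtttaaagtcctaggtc
C15, promoter, chr3R:21499630-21499830: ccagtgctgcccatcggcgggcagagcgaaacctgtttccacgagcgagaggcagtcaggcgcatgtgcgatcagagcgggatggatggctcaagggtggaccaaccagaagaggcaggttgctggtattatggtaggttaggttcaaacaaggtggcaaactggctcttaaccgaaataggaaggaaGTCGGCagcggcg
tup, promoter, chr2L:18881283-18881483: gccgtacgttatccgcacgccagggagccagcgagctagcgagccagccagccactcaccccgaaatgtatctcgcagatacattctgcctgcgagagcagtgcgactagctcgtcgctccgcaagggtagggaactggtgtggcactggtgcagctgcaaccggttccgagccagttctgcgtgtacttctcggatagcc
Ance, promoter, chr2L:13905331-13905531: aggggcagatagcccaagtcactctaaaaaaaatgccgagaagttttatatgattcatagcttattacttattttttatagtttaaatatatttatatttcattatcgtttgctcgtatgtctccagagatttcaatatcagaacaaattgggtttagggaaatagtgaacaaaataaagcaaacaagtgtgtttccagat
Smg5 promoter in the Ance window, chr2L:13904472-13904672: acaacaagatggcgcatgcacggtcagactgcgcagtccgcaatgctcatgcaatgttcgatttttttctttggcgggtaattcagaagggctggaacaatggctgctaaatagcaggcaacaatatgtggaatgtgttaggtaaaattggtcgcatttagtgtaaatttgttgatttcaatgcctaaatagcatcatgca
CG10602 promoter in the tup window, chr2L:18857766-18857966: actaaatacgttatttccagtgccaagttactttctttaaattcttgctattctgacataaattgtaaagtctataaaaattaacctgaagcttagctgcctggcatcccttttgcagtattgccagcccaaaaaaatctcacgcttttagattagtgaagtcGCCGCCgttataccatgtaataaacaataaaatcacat
shared mRpL13 and CG10602 promoter in the tup window, chr2L:18859216-18859416: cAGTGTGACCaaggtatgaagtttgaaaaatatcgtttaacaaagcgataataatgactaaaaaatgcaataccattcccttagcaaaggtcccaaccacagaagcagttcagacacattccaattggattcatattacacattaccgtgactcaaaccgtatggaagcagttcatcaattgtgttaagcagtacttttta

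Mad-eGFP peaks were found at these 6 genes about as often as at protein-coding genes in general, and the strongest peaks in the tup and Ance windows lay at promoters of neighbouring genes. A thresholded summit lay in the extended span of 3 of the 6 genes (peb, tup and Ance), where 45.8% of all protein-coding genes had one. The nearest protein-coding TSS was the gene's own for a thresholded summit of 2 of them (peb and tup), against 18.5% of all genes. For tup alone the summit was within 500 bp of that TSS, as it was for 19.7% of all genes. In the pooled list, which also holds weak peaks and background, all 6 had a summit in the extended span (87.9% of all genes). In the same list 4 had one within 500 bp of an own TSS (55.0% of all genes). At peb that summit, 344 bp upstream, had a signal of 21.5, near the lowest of the list (20.9), and its peak overlapped the stronger thresholded one. The median of the strongest pooled signal was 75.7 over the 6 genes and 74.1 over all protein-coding genes with a peak. These counts were near the shares of genes in general. With 1 condition in the series there was no contrast between groups to test.

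**Figure D1:**
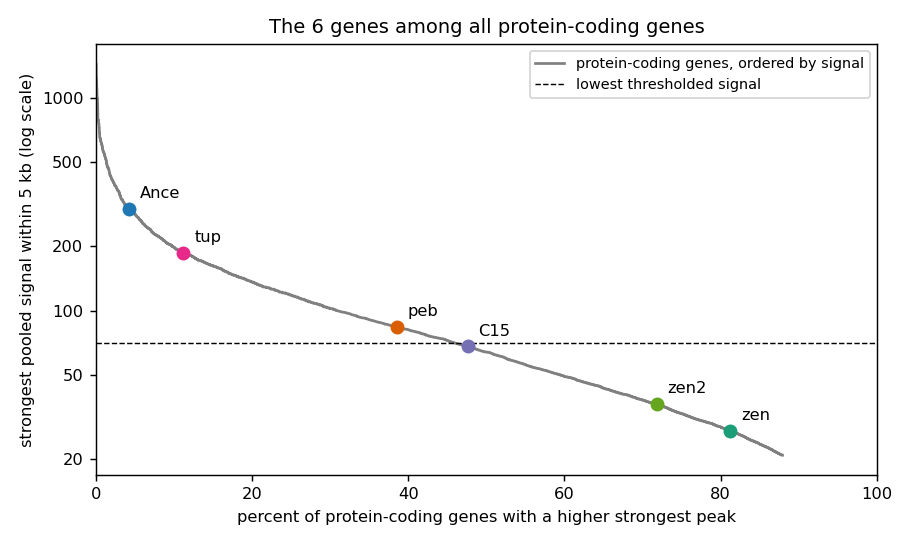
Strongest pooled-list signal within 5 kb (log scale) of each protein-coding gene, ordered from high to low, against the percent of genes with a higher value. Coloured points are the 6 genes. Ance (300) and tup (186) lie above the lowest thresholded signal of 70.5 with peb (83.5), while C15 (67.8) lies just under it and zen2 (36.3) and zen (27.3) far below.

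The lowest signal in the thresholded list was 70.5, and the highest pooled signal outside it was also 70.5. A peak's place in the list thus followed its pooled signal, and a thresholded peak could be weak in 1 replicate. The thresholded peaks nearest the starts of peb and tup ranked 6895 and 8072 in replicate 1. On the pooled scale, the peaks at the starts of tup (73.9) and C15 (67.8) were close to the limit of 70.5 on either side. The limit of 5 kb also left out peaks not far away. The farthest thresholded summit inside a window was 1641 bp from tup. The nearest thresholded summits outside lay 5467 bp from zen, 7565 bp from C15 and 9033 bp from tup. For zen2, peb and Ance the next ones were 15525, 22704 and 26608 bp away.

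**Figure D2:**
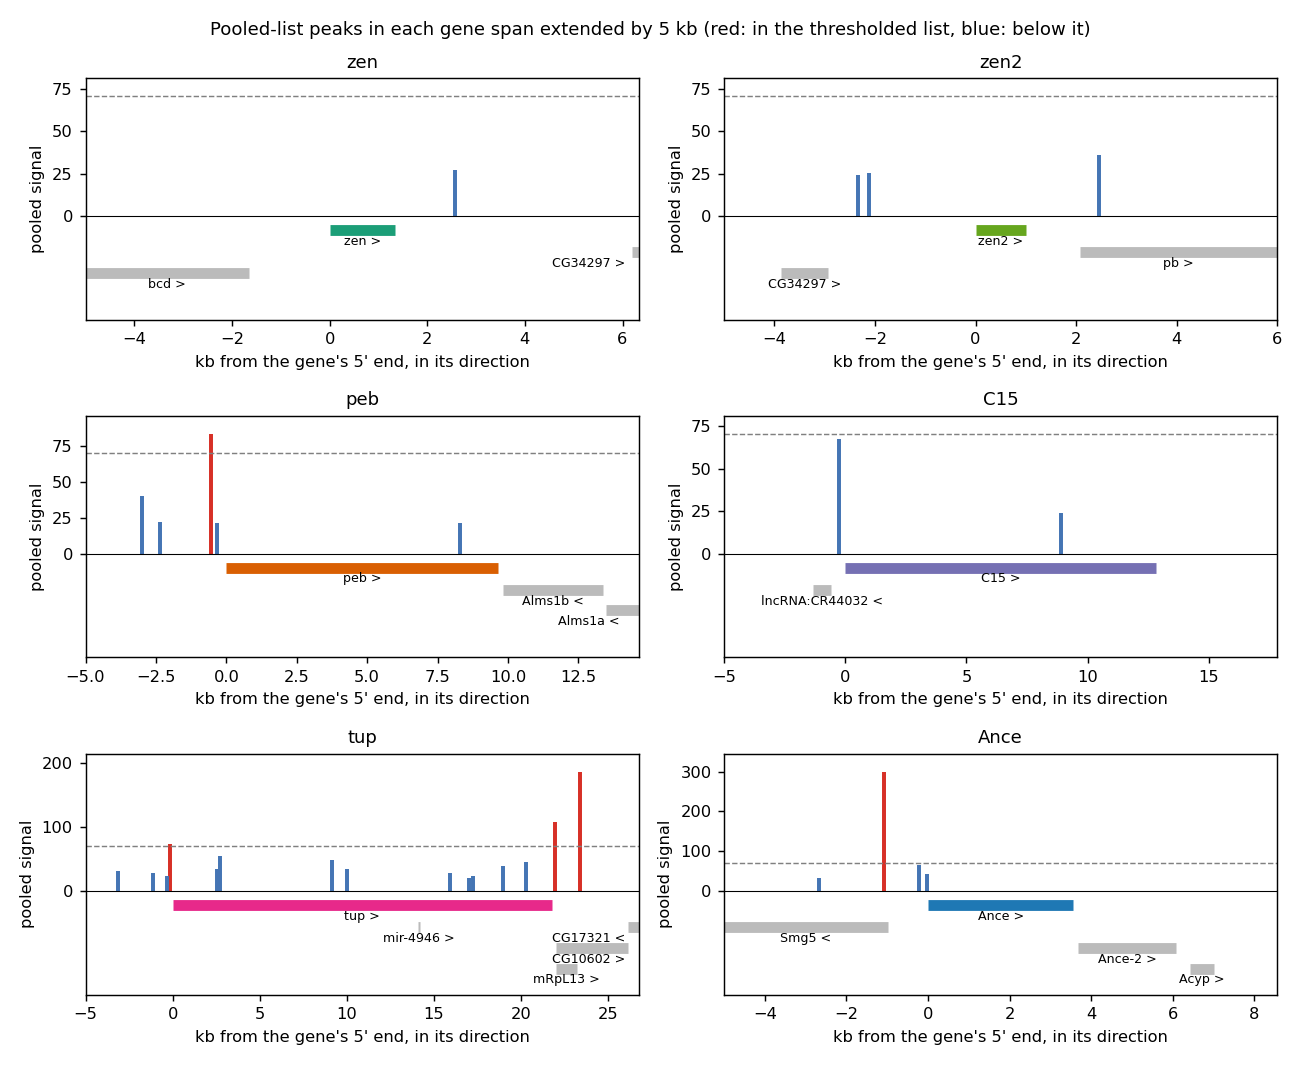
Pooled-list peaks (vertical lines, height is the pooled signal) along each gene, in kb from its 5' end and in the direction of its transcription. Red lines are thresholded peaks, blue lines are weaker ones, the dashed line is the lowest thresholded signal of 70.5, coloured bars are the 6 genes, and grey bars are neighbours with an arrow for their direction. The strongest peaks of tup and Ance stand over the ends of neighbouring genes, and zen has a single blue line downstream.

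The homeobox gene zen had the weakest peak of the 6. zen (FBgn0004053) lies on the minus strand of arm 3R at 6752864 to 6754194, between bcd on its upstream side and CG34297. The only pooled-list peak in its 11.3 kb window was at chr3R:6751432-6751827, in intergenic sequence 1234 bp beyond the 3' end of the gene. Its signal was 15.9 in replicate 1, 15.5 in replicate 2 and 27.3 in the pooled list, where the median peak had 30.6. It ranked 18654 of 30000 in the pooled list, 17554 in replicate 1 and 18527 in replicate 2. Both replicates were low, as was a further summit listed in replicate 1 alone, 1901 bp downstream of the start with a signal of 14, and 81.2% of protein-coding genes had a stronger peak. Upstream of the gene, where the early dorsal regulatory sequences of zen are known to lie, no summit of the pooled or the replicate lists was found within 5 kb. The nearest thresholded peak was at chr3R:6759463-6759858, at the promoter of bcd, the gene of the anterior maternal determinant Bicoid. That peak had a signal of 55.9 in replicate 1, 86.9 in replicate 2 and 140 in the thresholded list, and its summit was 195 bp upstream of the bcd TSS.

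zen2, a homeobox paralogue of zen in the same complex, had no thresholded peak either. zen2 (FBgn0004054) lies on the minus strand of 3R at 6743135 to 6744136. The strongest of its 3 pooled-list peaks, at chr3R:6741478-6741873, belonged by position to its neighbour pb, the Hox gene proboscipedia, 387 bp downstream of the pb TSS. In replicate 1 its signal was 20.6, in replicate 2 it was 15.9 and in the pooled list it was 36.3. The other two had 25.7 and 24 and lay 2121 and 2334 bp upstream of the zen2 start, nearer to CG34297. At the zen2 start itself a summit was listed in replicate 2 alone, 61 bp upstream, with a signal of 14.2 at rank 21494. The same place had no summit in the list of replicate 1 or in the pooled list.

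peb, also called hindsight, encodes a zinc-finger factor that the amnioserosa needs for germ band retraction, and it had 1 thresholded peak. The gene (FBgn0003053) lies on the plus strand of the X at 4617564 to 4627206. The peak at chrX:4616819-4617214 had its summit 547 bp upstream of the single TSS, just outside the 500 bp used for promoters. Its signal was 24.2 in replicate 1 (rank 6895), 54.9 in replicate 2 (rank 2058) and 83.5 in the pooled list (rank 2694). Replicate 2 was higher by 1.18 on the log2 scale, whereas the median of all thresholded peaks was 0.28 (SD 0.46 over 3585 peaks). A weaker peak 3004 bp upstream had 23.5 in replicate 1, 14.1 in replicate 2 and 40.1 in the pooled list. This second peak was higher in replicate 1, against the direction of the first. The 3 other pooled peaks of the window had signals from 21.5 to 22.2, and 1 of them, in a coding exon 8302 bp downstream of the start, overlapped no peak of either replicate.

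C15, a homeobox gene of the amnioserosa related to the vertebrate Tlx genes, had a peak at its promoter just below the authors' threshold. The gene (FBgn0004863) lies on the plus strand of 3R at 21499986 to 21512814. The peak at chr3R:21499532-21499927 had its summit 256 bp upstream of the only TSS. Its signal was 49.8 in replicate 1 (rank 1795), 16.8 in replicate 2 (rank 15826) and 67.8 in the pooled list (rank 3816). The replicates thus differed by a log2 ratio of -1.57. Of 4169 pooled peaks with a signal from 50 to 100 and a match in both replicates, 0.384% had a lower ratio, and their median was 0.23 (SD 0.61). The C15 peak was among the 3590 strongest of replicate 1 and far outside those of replicate 2. The other pooled peak, in an intron 8894 bp downstream of the start, had a signal of 24 in the pooled list and 15 in replicate 2, and none in replicate 1. Beyond the window, 7565 bp past the 3' end, a strong thresholded peak (201 in replicate 1, 244 in replicate 2 and 447 in the thresholded list) lay 549 bp upstream of the TSS of sp3.

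**Figure D3:**
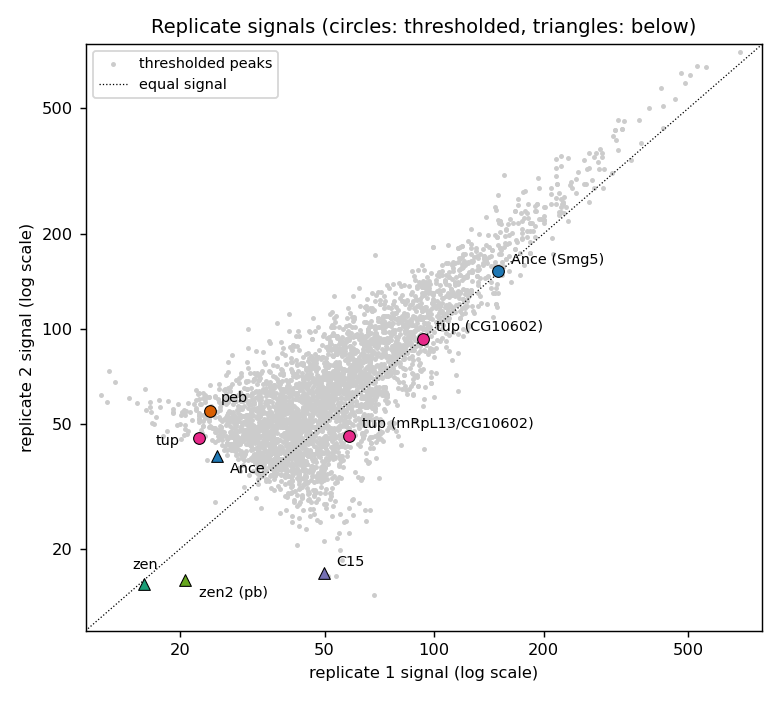
Signal in replicate 1 against signal in replicate 2 (both log scale) for the thresholded peaks (grey) and the 9 main peaks of the 6 genes (coloured, with the gene of the nearest TSS in brackets where it is another gene). Circles are thresholded peaks and triangles are weaker ones. The strongest CG10602 peak (93.3 and 92.9) and the Smg5 peak lie on the line of equal signal, the shared mRpL13 and CG10602 peak (58.5 and 45.8) lies below it, the own peaks of peb, tup and Ance lie above it, and C15 lies far below it with 49.8 and 16.8.

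tup, or tailup, which encodes the fly Islet factor with a LIM and a homeodomain, had 3 thresholded peaks, and 1 of them was at its own promoter. The gene (FBgn0003896) lies on the minus strand of 2L at 18859507 to 18881261. The peak at chr2L:18881185-18881580 had its summit 122 bp upstream of the single TSS. Its signal was 22.5 in replicate 1 (rank 8072), 44.9 in replicate 2 (rank 2896) and 73.9 in the pooled list (rank 3349). As at peb, replicate 2 was higher, here by 0.99 on the log2 scale.

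The other two thresholded peaks in the tup window lay past its 3' end, at genes transcribed in the same direction. At chr2L:18857668-18858063, 187 bp upstream of a TSS of CG10602, the signal was 93.3 in replicate 1, 92.9 in replicate 2 and 186 in the pooled list (rank 573). At chr2L:18859118-18859513, 68 bp upstream of a TSS shared by CG10602 and mRpL13, which encodes a mitochondrial ribosomal protein, it was 58.5, 45.8 and 108 in the same order. Both replicates were high at each of them, with log2 ratios of -0.01 and -0.35.

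The weak pooled-list peaks along the body of tup were strongest 2741 bp downstream of the start, in an intron. It had 28.6 in replicate 1, 26 in replicate 2 and 55 in the pooled list (rank 5322). A further intronic peak, 9127 bp downstream, had 18.8, 24.1 and 49.3. In all, 15 pooled-list summits lay in the 31.8 kb window, and 11 of these peaks overlapped a peak of both replicates. Over the whole pooled list there was 1 summit for each 4.46 kb of chromosome arm. Outside the window, at 9033 bp upstream, a thresholded peak whose nearest protein-coding TSS was that of tup had 47 in replicate 1, 83.1 in replicate 2 and 132 in the thresholded list. That is above the value at the tup promoter in every list.

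Ance encodes a peptidase of the angiotensin-converting enzyme family that is made in the amnioserosa. The strongest peak of the 6 windows was found near it, but at another gene. Ance (FBgn0012037) lies on the plus strand of 2L at 13905645 to 13909212, beside Smg5, a gene of nonsense-mediated mRNA decay that is transcribed in the opposite direction, away from it. The thresholded peak at chr2L:13904527-13904628 had a signal of 150 in replicate 1, 152 in replicate 2 and 300 in the pooled list (rank 188). Its summit was 89 bp downstream of the nearest Smg5 TSS and 1073 bp upstream of the first Ance TSS. Only 4.25% of protein-coding genes had a stronger peak within 5 kb. The peak at the Ance start itself, at chr2L:13905233-13905628, had its summit 214 bp upstream and was below the threshold. Its signal was 25.3 in replicate 1 (rank 6323), 39.3 in replicate 2 (rank 3614) and 66.6 in the pooled list (rank 3923). A pooled peak that overlapped the Ance TSS, with its summit 13 bp upstream, had 43.9.

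**Figure D4:**
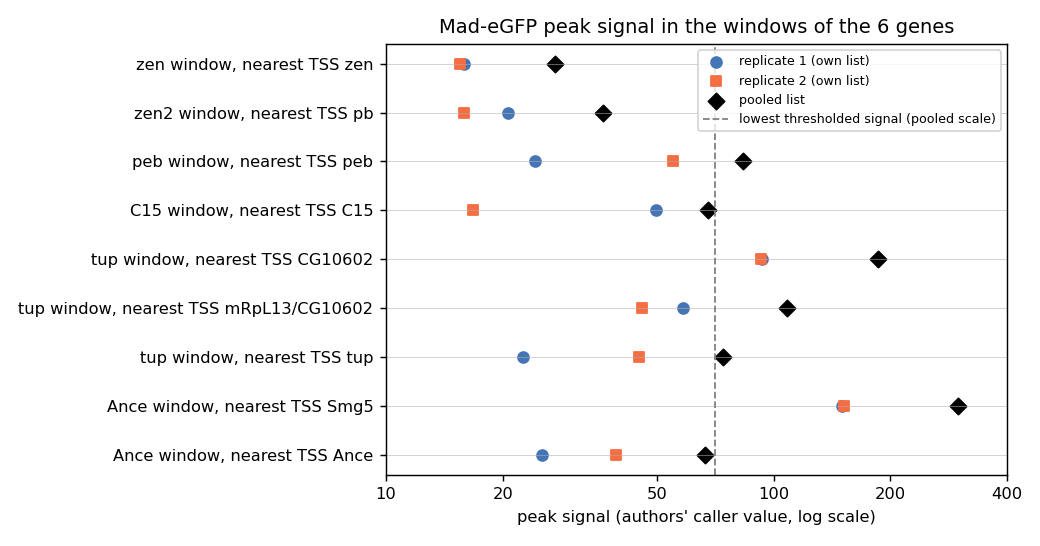
Signal (log scale) of the 9 main peaks in the windows of the 6 genes, in replicate 1 (circles), replicate 2 (squares) and the pooled list (diamonds), with the gene of the nearest TSS on the left. The dashed line is the lowest thresholded signal of 70.5 on the pooled scale. The replicates coincide at the stronger CG10602 peak and at Smg5, lie somewhat apart at the shared mRpL13 and CG10602 promoter (58.5 and 45.8), and lie farther apart at the own peaks of peb, C15 and tup.

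Among the 9 main peaks, the 4 next to an own start (peb, C15, tup and Ance) had pooled signals from 66.6 to 83.5. The 3 at neighbouring promoters of the tup and Ance windows had 108 to 300. These 3 were chosen because they were thresholded, whereas own peaks were taken at any strength, so the difference was partly set by the choice. The peak at the pb promoter in the zen2 window, taken without that limit, had 36.3. Replicate 2 was the higher one at peb, tup and Ance (log2 ratios 1.18, 0.99 and 0.64) and the lower one at C15. Of the pooled peaks with a signal from 50 to 100, 93.8% had a lower ratio than peb, 90.3% a lower one than tup and 76.1% a lower one than Ance. At the 3 neighbouring promoters, chosen as thresholded peaks, the ratios ran from -0.35 to 0.02, and at the weaker pb peak it was -0.37. Of the 30 pooled peaks in all 6 windows, 22 (73.3%) overlapped a peak in both replicate lists, against 56.4% of the whole pooled list. Pooled peaks that lie side by side can be matched to the same replicate peak, as at the tup and Ance starts.

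The sequence at these peaks held few of the words searched. Within 100 bp of the summit, on both strands, the GC-rich Mad word GCCGNC was found at 2 of the 9 peaks, C15 and CG10602, and at 15.3% of all thresholded peaks and 28.6% of the pooled peaks below the threshold. At C15 it lay on the minus strand, 88 to 93 bp to the right of the summit, and at CG10602 on the plus strand, 63 to 68 bp to the right. GGTCACACT, the site of the promoter factor M1BP, was found at the shared mRpL13 and CG10602 promoter, 91 to 99 bp to the left of the summit on the minus strand, and at 3.15% of thresholded peaks. None of the 9 held the DREF site TATCGATA (6.16% of thresholded peaks), the Smad palindrome GTCTAGAC (0.0836%), the Zelda word CAGGTAG (0.78%), the GAGA word GAGAGAG (3.9%) or the homeodomain word TAATTA (14.7%). Likewise none held a GATA word, AGATAA or TGATAA (26% for either), or one of the words bound by the repressor Brinker (18.9% for any), which were GGCGCC, the variant GGCGCT, the variant GGCGTC and the variant GGCGTT. The 4-letter Smad box GTCT, added after the other words had been counted, occurred at 6 of the 9 and at 53.4% of thresholded peaks. The silencer element bound by Mad, Medea and Schnurri, also added then and searched in its bipartite form with a GC-rich part and a Smad box, occurred at 0 of the 9 and at 0.0557% of thresholded peaks. The windows at tup and C15 had a GC content of 61.2% and 57.2%, and those at peb and Ance 32.8% and 30.3%, where the median thresholded window had 36.8%.

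Other genes that act on the dorsal side were counted in the same way. Of 10 further dorsal ectoderm and amnioserosa genes, 5 had a thresholded summit in the extended span, where 45.8% of all protein-coding genes had one. For 3 of them such a summit was nearest their own TSS, against 18.5% of all genes. The count of 5 rested on the combined list. It was 6 with the 3590 strongest peaks of replicate 2 (without replicate 1) and 9 with those of replicate 1 (without replicate 2). The 45.8% belongs to the combined list, and no share of all genes is given for a single replicate. ush, a cofactor of GATA factors, held 12 thresholded summits, up to a signal of 1239 at a peak nearest the TSS of cbt. The T-box genes Doc2 (118), Doc3 (100) and Doc1 (77.4) and the HLH gene emc (103) followed. The peaks of Doc3 and Doc1 were nearest the TSS of CG5194 and Argk2. The 5 with none were pnr, srp, Kr, rho and Egfr. At Doc2 the replicates had 55.2 and 63.7, and at emc 47.7 and 55.3, so both were above the own peaks of tup and Ance in each replicate. Of 12 genes of the dorsal BMP signal, 9 had a thresholded summit in the extended span. For 6 of the 12 such a summit was nearest their own TSS, against 18.5% of all genes. Only 1 of the 12 had one within 500 bp of an own TSS, against 19.7% of all genes. The highest signals were at Mad (463), Med (336), cv-2 (201), sax (178), dpp (142) and sog (125). Those of Med, cv-2 and sax were nearest the TSS of Mnat9, CG17974 and puml. Without a thresholded peak were scw, tld and tsg, which encode a ligand, a protease and an extracellular modulator that act early on the dorsal side.

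Of 7 genes whose products regulate zen in the early embryo, 6 had a thresholded summit, and the exception was dl, the Dorsal factor. Only 1 of the 7 had a thresholded summit within 500 bp of an own TSS, against 19.7% of all genes. Signals were 304 at gro, a corepressor, 173 at cic, which encodes the repressor Capicua, and 136 at brk, the gene of Brinker. They were 114 at retn and 98.2 at ct, which encode DNA-binding factors that assist repression by Dorsal, and 72 at zld, the gene of the early activator Zelda. The peaks of retn and zld were nearest the TSS of Pde8 and CG12702. In 4 of the 6 (gro, cic, ct and brk) no other protein-coding TSS lay closer to at least 1 of the peaks. The gene counts of these lists were not tested, and each is to be read beside the 45.8% of all genes that had a thresholded summit within 5 kb. For summits nearest an own TSS the share of all genes was 18.5%. Genes of all lengths count in these shares, and a longer span can hold more summits.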

How the data were processed

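Chromatin immunoprecipitation and sequencing with an anti-GFP antibody covered 2 replicates of Mad-eGFP embryos, with chromatin sonicated to 200 to 800 bp, per the labels. The peak signal is the value the authors' caller wrote in the deposited dm6 lists. The lists derive from alignments of each replicate or of both and of a control, per the descriptions deposited beside them. The sources used here name no caller or aligner and give no read depth. The control and the dm3 lists were not used here.

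From these lists, summits were placed on Ensembl release 115 genes, leaving out transposable elements, and on the RefSeq release 6 genome, with all peak ends inside the arms. Replicate values are the highest signal that overlapped a pooled peak by at least 1 bp. Signals were ranked within a list, and the signals of the replicates were also set side by side as log2 ratios. These ratios were not adjusted for depth, which is unknown. No test across conditions was possible. The main peaks are all thresholded peaks in the windows and, for each gene, the strongest pooled peak nearest an own TSS (for zen2, the strongest in its window). The 6 genes, the lists and the 13 motif words were chosen with earlier results of these data known. Genes named are the members, genes nearest their peaks or overlapping their windows, and up to 6 bound genes per list. Genes of a list without a peak, and genes at the next peaks outside the windows, fall outside that rule and were named after their values were seen. The counting was tested on simulated data. Python 3.11.15, numpy 2.4.6 and pandas 2.3.3 were used.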

Additional observations from a re-analysis of the deposited data

How the results depend on the processing

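No paired analysis was possible because the series has 1 group. The number of the 6 genes with a thresholded peak was 3 as reported, 5 with spans extended by 10 kb and 1 for summits within 500 bp of an own TSS. It was 2 with spans extended by 1 kb, for own TSS nearest and for the 1000 strongest peaks. It was 3 without either replicate (the 3590 strongest peaks of the other), but without replicate 2 peb had none and C15 had 1. The peak at the tup promoter (rank 8072 in replicate 1) was then lost too. In that case tup and Ance counted only through summits nearest CG10602 and Smg5. Shares of all genes are given only for 5 kb (45.8%), own TSS nearest (18.5%) and within 500 bp (19.7%). The counts under the other settings, here and for the lists below, have no such share beside them. The thresholded summits in all windows numbered 5, and 3 with 1 kb, 10 with 10 kb, 2 for own TSS nearest, 1 within 500 bp of an own TSS and 2 among the 1000 strongest peaks. With 10 kb, zen gained 3, C15 gained 1 and tup went from 3 to 4.

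For the other dorsal genes the count was 5, and 3 for own TSS nearest, 2 within 500 bp, 1 among the 1000 strongest peaks, 6 without replicate 1 and 9 without replicate 2 (range 6 to 9). For the BMP list (9) it was 1 within 500 bp and 4 among the 1000 strongest, and for the regulators of zen (6) it was 1 and 2. For the gene clusters and the Ance family (7) it was 4 with 1 kb, 4 for own TSS nearest, 3 within 500 bp and 1 among the 1000 strongest.

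The rank of the strongest peak ran without a replicate from 17554 to 18527 at zen, 9913 to 17654 at zen2, 2058 to 6895 at peb and 1795 to 15826 at C15. With 10 kb it was 1063 at zen and 77 at C15, and with 1 kb it was 1738 at tup and 3923 at Ance, while zen and zen2 had no pooled summit within 1 kb. The strongest peak of the window was at a promoter for 4 genes, but only at C15 was it the gene's own promoter. At zen2, tup and Ance it was that of pb, CG10602 and Smg5. With a distance of 250 bp it was at a promoter for 2 genes, tup and Ance, again at CG10602 and Smg5. Motif words found at the main peaks numbered 3, and 0 with 50 bp and 8 with 150 bp to each side. With 150 bp, words absent within 100 bp appeared, TAATTA at 2 peaks and a Brinker word at 2. In 39 cases, some given above, a count moved by at most 1.5 times or a rank by less than 1 SD between replicates. At C15 that SD was wide enough to cover the 77. The counts for own TSS nearest in the BMP list (9 to 6) and among the regulators of zen (6 to 4) moved by 1.5 times. Matching replicates by summits within 100 bp changed 1 ratio of the 9 main peaks, that of tup, from 0.99 to 1.00. Depth per replicate is unknown, so weak peaks cannot be weighed against it.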

Other observations

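Genes of the clusters that hold zen, zen2 and C15, and of the Ance family, were counted in the same way. Of 17 genes in the Antennapedia complex, the NK homeobox cluster and the Ance family, 7 had a thresholded summit within 5 kb. Nearest their own TSS, 4 had one. The shares of all protein-coding genes were 45.8% and 18.5%, and no test was made of these counts. In the Antennapedia complex Antp, a Hox gene, had 6 thresholded summits, the strongest with 47.6 in replicate 1, 64.1 in replicate 2 and 115 in the thresholded list. bcd and Ama, an immunoglobulin-domain gene, shared the peak of signal 140 at the bcd promoter, while pb, Dfd and ftz had none. In the NK cluster, the heart homeobox gene tin had, 208 bp upstream of its start, a thresholded peak with 61.8 in replicate 1, 77.2 in replicate 2 and 133 in the thresholded list. bap, lbl, lbe and slou had none. The replicates were closer at tin than at C15, where they had 49.8 and 16.8. Of the Ance family, Ance-2 shared the Smg5 peak (300), and Ance-3, Ance-4 and Ance-5 had none. Ance-4 and Ance-5 lie on arm 2R, apart from Ance on 2L.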
